A study of Mus musculus with 56 samples.

Results

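The livers described here came from 8 mice with diet-induced obesity and steatohepatitis (DIO-MASH) that received high-dose semaglutide, and each value was set against 8 chow-fed mice given vehicle. These 16 mice are 16 of the 56 in the series, and were chosen by their treatment and diet labels alone. All were male C57BL/6J mice, 5 to 6 weeks old when obtained. The DIO-MASH mice ate a high-fat AMLN diet with added fructose and cholesterol for 36 weeks before treatment, and entered the study only if a liver biopsy had shown steatosis and fibrosis. Semaglutide, a long-acting agonist of the GLP-1 receptor, was then injected under the skin daily for 8 weeks at 120 µg/kg while the AMLN diet went on. Further groups of 8 mice on the AMLN diet served as references, namely DIO-MASH vehicle, high-dose zalfermin (an FGF21 analog, 0.2 mg/kg) and the combination of zalfermin with semaglutide. The sources disagree on the combination, since the study's methods give 0.05 mg/kg and 3 µg/kg, the low dose of each drug, while the deposited design text names the high dose of each. The comparison asks which of the expression differences between diseased and healthy liver were still present after semaglutide. The treated mice still ate the AMLN diet and the controls ate chow, so diet and remaining disease cannot be told apart in it.

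In steatohepatitis, hepatocytes store triglyceride and free cholesterol, and lose part of the metabolic program that marks the differentiated cell. Monocyte-derived macrophages enter the tissue, some of them acquire a lipid-handling state marked by Trem2 and Gpnmb, and hepatic stellate cells turn from vitamin A storage to the making of collagen. Cholesterol synthesis is held in check by feedback, as sterols keep the transcription factor SREBP2 from reaching the nucleus.

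Libraries held 5228187 to 17157826 counted reads in the chow-fed mice and 8315012 to 15848192 in the semaglutide group, and levels are given as reads scaled to library size (CPM), which compare mice for 1 gene and not genes with each other. The tissue carried the hepatocyte markers in every mouse, with a summed level over 10 genes of 163621 to 263124 CPM in chow-fed mice, 75845 to 130240 CPM after semaglutide and 71363 to 94751 CPM in DIO-MASH vehicle. Alb made up most of this sum, with medians of 121063 CPM in chow and 74852 CPM after semaglutide. Of the 10 genes 9 were called lower and 1 higher after semaglutide than in chow, and 9 and 0 without chow-fed mouse 8. Chow-fed mouse 8 (number 5005) stood apart. Of 12 markers of gallbladder, stomach and intestinal epithelium 7 were tested. In mouse 8 these summed to 2486 CPM, against 28.1 to 56.6 CPM in the other 7 chow-fed mice. Its 7 cholangiocyte markers summed to 1670 CPM against 17.9 to 30.1 CPM. Its mesothelial markers summed to 159 CPM against 1.62 to 14.3 CPM, and its B cell markers to 318 CPM against 3.51 to 43.7 CPM. These sums are not separate signs. Tff2, at 1387 CPM in mouse 8, made up most of the epithelial and of the cholangiocyte sum. Krt19, at 156 CPM, was in the cholangiocyte and mesothelial lists. Jchain, at 314 CPM, made up nearly all of the B cell sum. The comparison of semaglutide with chow was therefore repeated without mouse 8. Values of DIO-MASH vehicle against chow are given with all 8 chow-fed mice throughout. Chow-fed mice 2 and 7 differed in another way, with Saa2, a serum amyloid A gene, at 5875 and 891 CPM against 6.07 to 36.1 CPM in the other 6. Glp1r, which encodes the receptor of semaglutide, had 2 reads over all 8 treated livers and was too low to test.

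Across the 14105 genes tested, 5634 (39.9%) differed between high-dose semaglutide and chow at an adjusted p below 0.05, of which 3011 (21.3%) were higher and 2623 (18.6%) lower. Without chow-fed mouse 8 the count was 5672 (40.2%), with 3232 higher (22.9%) and 2440 lower (17.3%). DIO-MASH vehicle differed from the same chow-fed mice in 7811 genes (55.4%), 4072 higher (28.9%) and 3739 lower (26.5%). Changes of at least 2-fold numbered 1727 higher and 335 lower after semaglutide, against 2468 and 545 in DIO-MASH vehicle. The median log2 fold change over all genes was 0.0 after semaglutide and 0.01 in DIO-MASH vehicle. Leaving out 1 mouse at a time gave 4666 to 5866 called genes for semaglutide against chow. Since these are whole livers, fewer cells of a type and less RNA per cell cannot be told apart in any value below.

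The 12 largest rises came from genes of several kinds. Among genes called with and without mouse 8, at a mean of 1 CPM or more and with no overlap between the 8 and 8 mice (331 higher, 2.35%, and 266 lower, 1.89%), Cidea rose most. Cidea, a protein that enlarges lipid droplets and is mainly known from brown fat, was at 0 to 0.832 CPM in chow (median 0.147) and 5.58 to 44 CPM after semaglutide (median 20.6). Every treated mouse lay above every chow-fed mouse, as the choice required. The log2 fold change was 6.52 (SE 0.63, adjusted p = 2.4e-11), or 7.20 without chow-fed mouse 5. Cidec, its relative in white fat, was at 0.615 to 13.7 CPM in chow and 68.5 to 162 CPM after semaglutide, a log2 rise of 4.29. Gpnmb, a glycoprotein of lipid-laden macrophages, was at 0.208 to 1.98 CPM in chow (median 0.876) and 12.3 to 99.1 CPM after semaglutide (median 33.6), a log2 rise of 5.56 (SE 0.57, adjusted p = 1.6e-10). Trem2, a lipid-sensing receptor of the same cells, rose by 4.27 and Mmp12, macrophage elastase, by 4.93. The others of the 12 were the adaptor genes Shc2 (5.80) and Lat2 (4.01), Gdf3 (5.01), the receptor Ephb2 (4.96), Fam83a (3.80), the collagenase inhibitor Timp1 (3.76) and Cyp2a4 (5.04). Cyp2a4 has near-identical relatives among which its reads could be split, so its value is uncertain. DIO-MASH vehicle stood at log2 7.65 over the same chow-fed mice for Cidea, 6.09 for Gpnmb and 4.80 for Trem2.

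The 12 largest falls likewise shared no single role. Cd163, the hemoglobin scavenger receptor, was at 6.26 to 46.1 CPM in chow (median 13.5) and 0 to 2.77 CPM after semaglutide (median 0.123). Its log2 fold change was -5.13 (SE 1.06, adjusted p = 0.00013), and -7.03 without semaglutide mouse 4, the one with 2.77 CPM. Marco, a scavenger receptor of Kupffer cells, was at 8.22 to 94.6 CPM in chow and 0.132 to 2.62 CPM after semaglutide, a log2 change of -5.00. Lack of overlap between the groups was a condition for all 12 and is no added result. Sqle, the squalene epoxidase, fell by 3.42 on the log2 scale and Enho, which encodes the peptide adropin, by 2.98. Cyp2b10 changed by -5.05 with mouse 8, which held 109 CPM, and by -2.65 without it. Slc13a2, a dicarboxylate carrier, changed by -3.63, and by -3.04 without mouse 8. The B cell chemokine gene Cxcl13 changed by -4.16, and by -3.38 without chow-fed mouse 2. Adgrf1, Grm8 and Raet1e fell by 3.43, 3.09 and 2.99. Serpina1e (-3.88, and -4.48 without semaglutide mouse 3) and Gm3839 (-3.40) share sequence with relatives, so their values are uncertain.

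**Figure D1:**
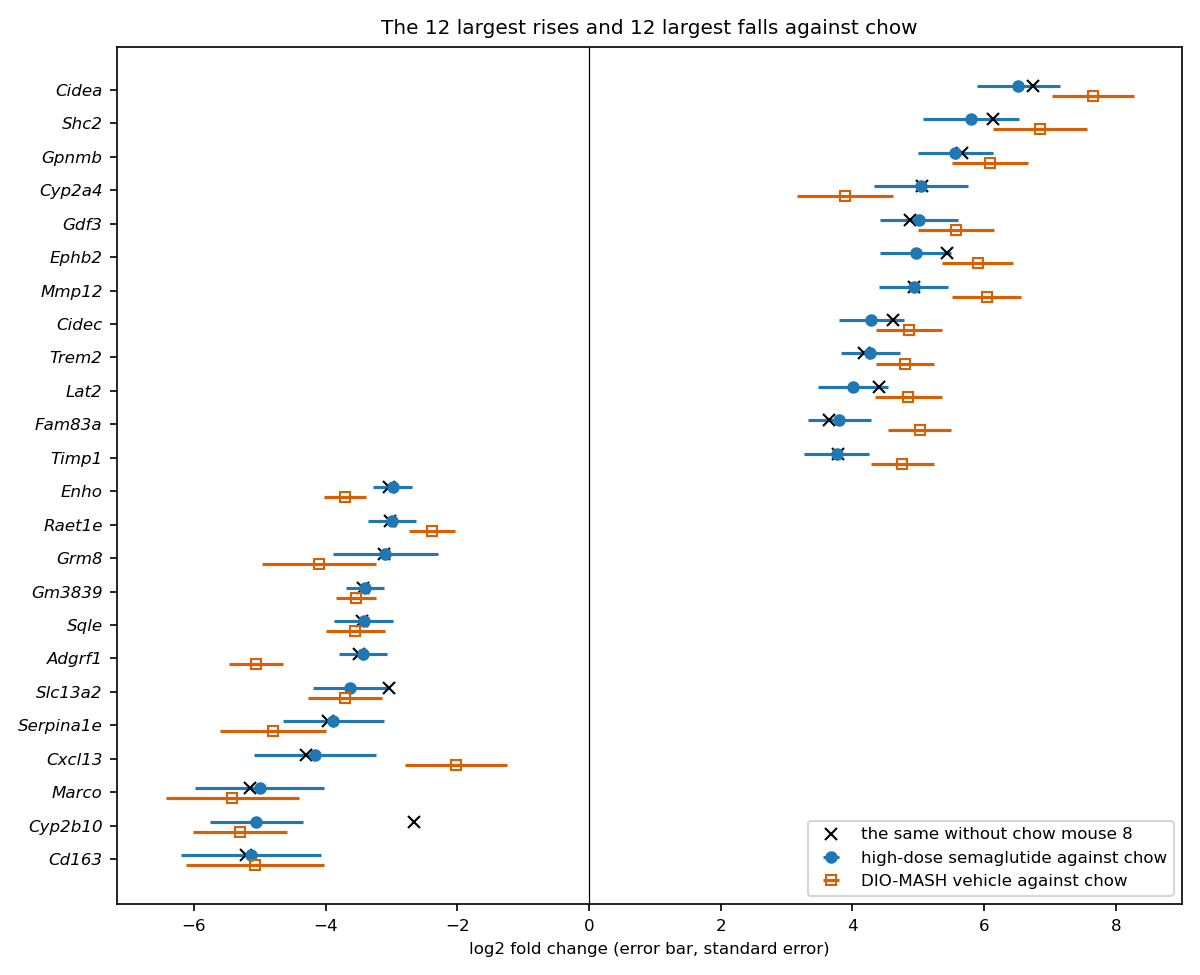
Log2 fold changes (horizontal axis) of the 12 largest rises and 12 largest falls against chow, for high-dose semaglutide (filled circles), the same without chow-fed mouse 8 (crosses) and DIO-MASH vehicle (open squares); bars are standard errors. Cidea stood at 6.52 after semaglutide and 7.65 in DIO-MASH vehicle, and the cross for Cyp2b10 moved to -2.65.

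**Figure D2:**
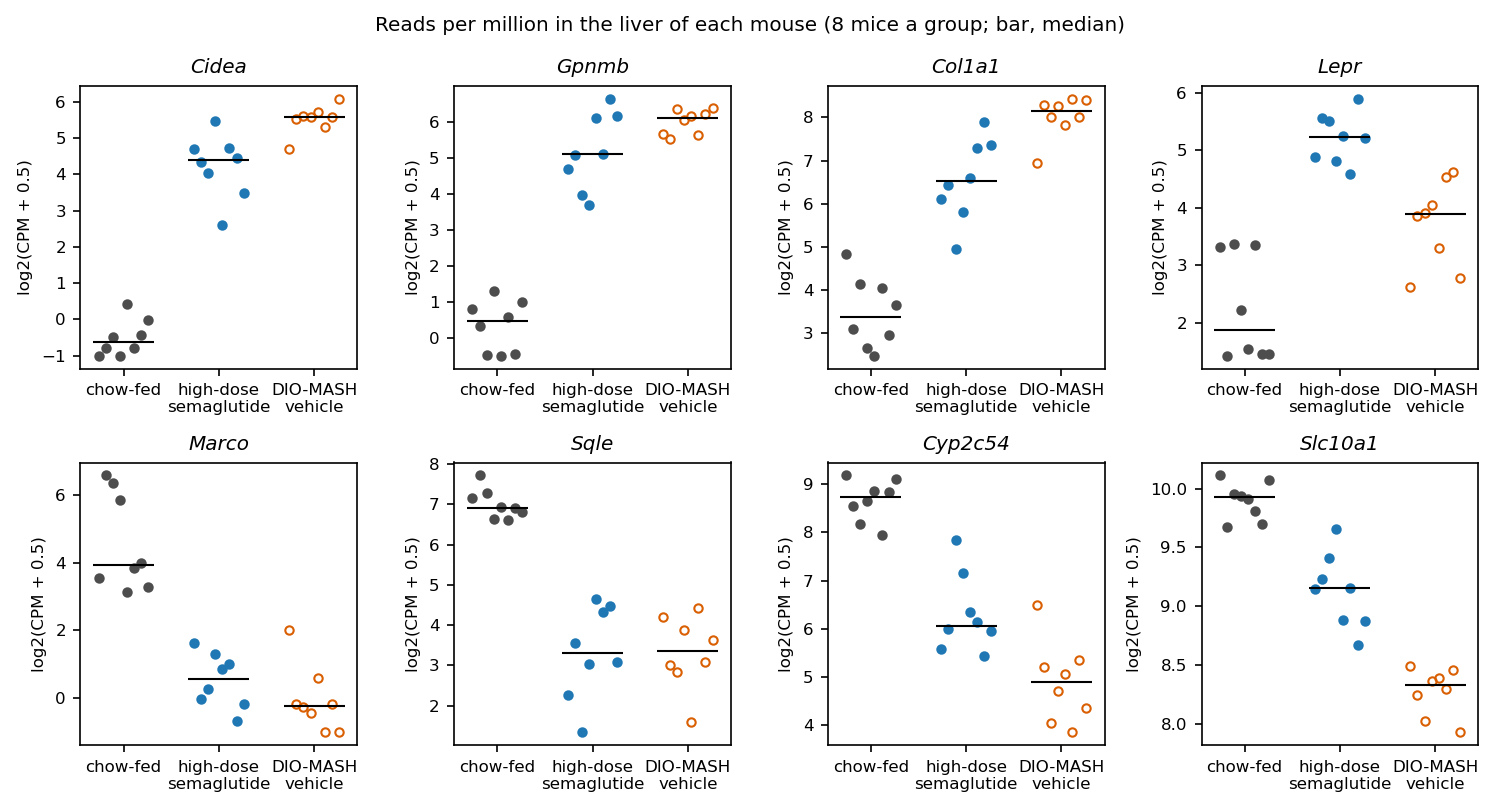
Levels of 8 genes in each liver as log2(CPM + 0.5) on the vertical axis, 8 mice a group, with the group median as a bar. For Cidea, Gpnmb, Col1a1 and Lepr every semaglutide mouse lay above every chow-fed mouse, and for Marco, Sqle, Cyp2c54 and Slc10a1 every one lay below. Cidea, Gpnmb, Marco and Sqle were named by a rule that required this.

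Most collagen genes stayed above chow. Of 18 fibrillar and network collagen genes, 15 were called higher and 1 lower, with a median log2 fold change of 1.98, against 15 and 1 with a median of 2.71 in DIO-MASH vehicle. Col1a1, the main chain of type I collagen, was at 5.10 to 28.3 CPM in chow (median 10.2) and 30.4 to 239 CPM after semaglutide (median 91.3), a log2 fold change of 3.17 (SE 0.41, adjusted p = 3.3e-08). The groups did not overlap, although semaglutide mouse 3 at 30.4 CPM came close to chow-fed mouse 1 at 28.3 CPM. Col3a1 rose by 2.75 and Col6a3 by 3.12 on the log2 scale. Col18a1, the basement membrane chain that gives rise to endostatin, was the member called lower, at -0.37. The mean log2 level over the 18 genes was 0.85 to 2.67 above the chow mean in the semaglutide mice, with a median of 1.59, and 1.89 to 2.81 above it in DIO-MASH vehicle. Mouse numbers fall into ranges whose meaning the sources do not state, and within the 3 ranges that hold both groups the difference was 1.05, 1.65 and 2.56.

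Genes for proteins that accompany and process collagen were also called higher more often than lower. Of 27 matrix glycoprotein and proteoglycan genes 25 were called higher and 1 lower, with a median of 1.53 (2.10 in DIO-MASH vehicle). Lum, a proteoglycan that orders collagen fibrils, was at 3.55 to 11.1 CPM in chow and 14 to 106 CPM after semaglutide, and Spp1, osteopontin, at 20.8 to 49.4 CPM and 61.8 to 474 CPM. Neither pair of groups overlapped, with log2 rises of 2.69 and 2.57. Fn1, plasma fibronectin made by hepatocytes, was the member called lower, at -0.30, and lost its call when any of 7 mice was left out, chow-fed mice 2 and 5 and semaglutide mice 1, 4, 6, 7 and 8. Of 16 processing and cross-linking enzyme genes 10 were called higher and 1 lower (median 1.17; 2 lower without chow-fed mouse 1, 5 or 8 or semaglutide mouse 1 or 5), led by Loxl1 (2.77) and the procollagen peptidase gene Adamts2 (2.52). Of 15 metalloproteinase and inhibitor genes 12 were called higher and 0 lower (median 1.83). Among them Mmp2, a gelatinase, was at 0.631 to 7.49 CPM in chow and 6.38 to 47.9 CPM after semaglutide, so that the groups overlapped, and rose by 2.85 on the log2 scale. Of 24 stellate cell activation and fibrogenic signal genes 16 were called higher and 2 lower (median 1.02). Pdgfrb, the receptor through which PDGF drives stellate cells, was at 4.05 to 13.1 CPM in chow and 17.1 to 75.3 CPM after semaglutide, a log2 rise of 2.25 (SE 0.30, adjusted p = 4.2e-08). The 2 calls lower in that list fell to 0 without semaglutide mouse 2, 6 or 8, and to 1 without chow-fed mouse 3, 7 or 8 or semaglutide mouse 3, 5 or 7. Summed over 10 stellate cell markers, of which 8 were called higher, the level was 229 to 456 CPM in chow and 482 to 1195 CPM after semaglutide.

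**Figure D3:**
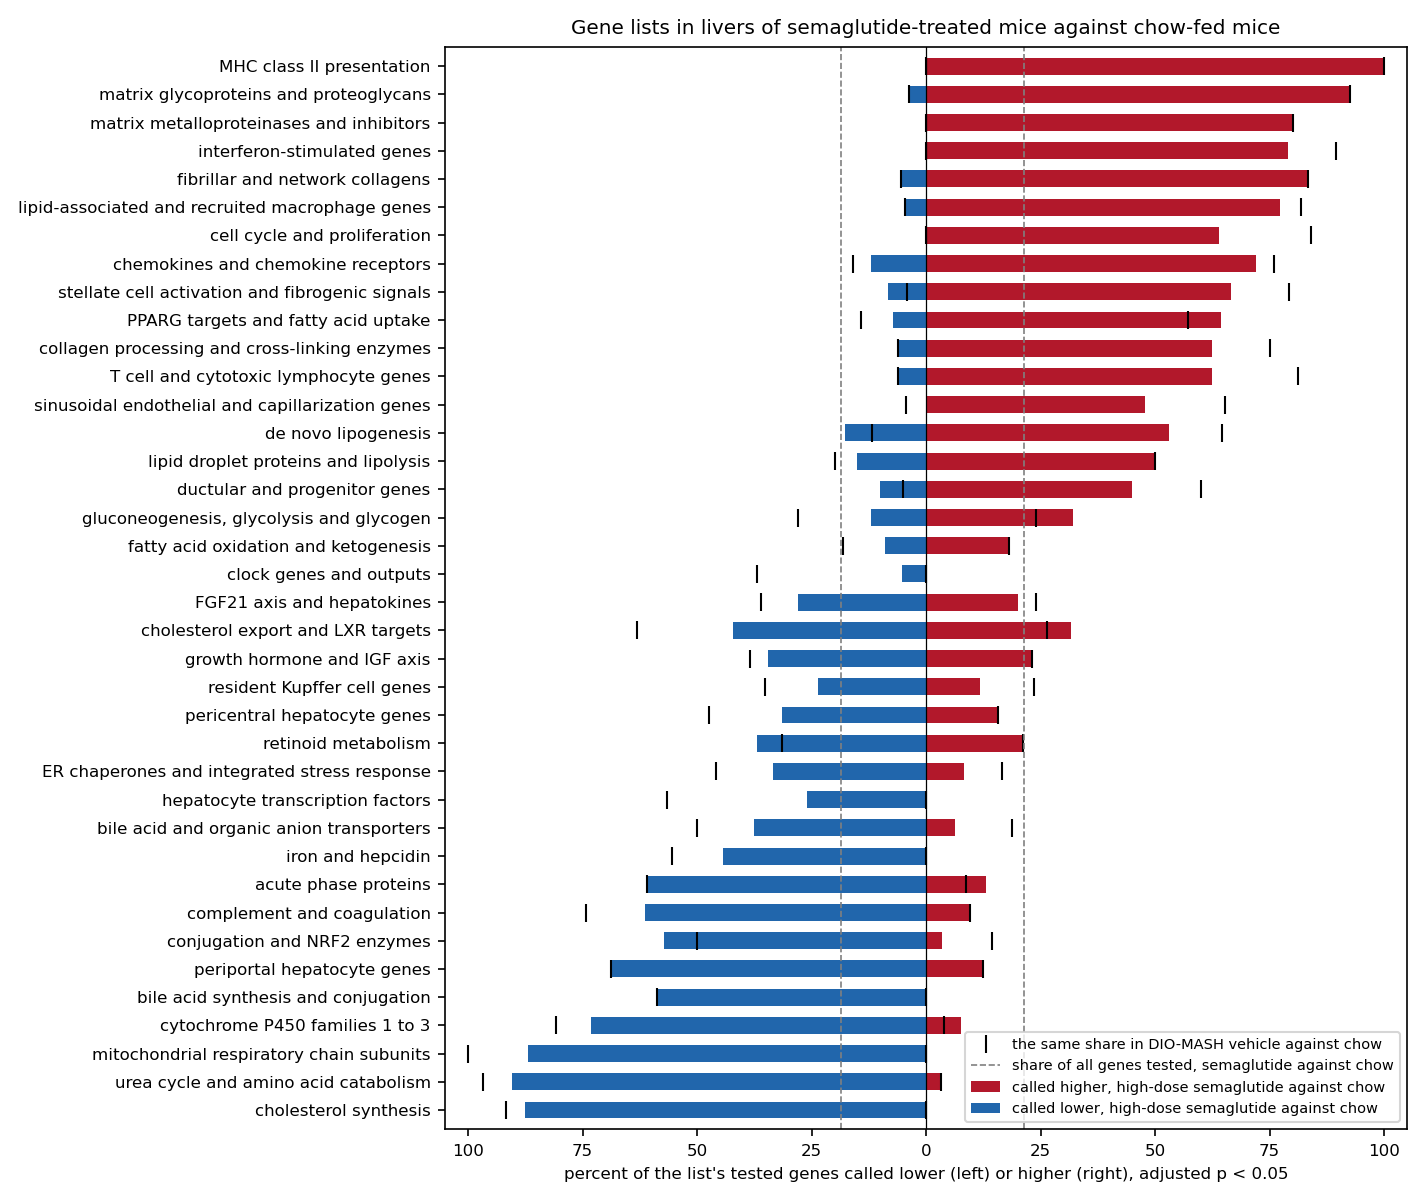
Share of each list's tested genes called higher (right) or lower (left) in high-dose semaglutide against chow, with black ticks for DIO-MASH vehicle against chow and dashed lines for all genes tested (21.3% higher, 18.6% lower). Collagens reached 15 of 18 higher, and cholesterol synthesis 21 of 24 lower.

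Most recruited macrophage genes were called higher, while resident Kupffer cell genes did not move as 1 group. Of 22 lipid-associated and recruited macrophage genes 17 were called higher and 1, the cathepsin gene Ctsl (-0.28, not called without chow-fed mouse 1 or 2), lower, with a median of 1.49 (2.11 in DIO-MASH vehicle). Itgax, the integrin CD11c, was at 0.541 to 3.57 CPM in chow and 6.65 to 26.9 CPM after semaglutide, and Ccr2, the receptor for monocyte entry, at 0.384 to 2.86 CPM and 4.45 to 15.8 CPM. Both rose without overlap, by 3.45 and 2.67 on the log2 scale, as did Cx3cr1 (3.06). The 7 markers of monocyte-derived macrophages, 6 of them called higher, summed to 3.54 to 14.3 CPM in chow, 40.2 to 195 CPM after semaglutide and 118 to 178 CPM in DIO-MASH vehicle. Of 17 resident Kupffer cell genes 2 were called higher and 4 lower (median -0.02), and 4 were called higher without chow-fed mouse 2 or 3 or semaglutide mouse 4. Beside Cd163 and Marco, Timd4, a receptor for dying cells on embryonically derived Kupffer cells, fell by 1.95 on the log2 scale, and the iron exporter gene Slc40a1 by 0.58. Cd5l, a secreted macrophage scavenger protein, rose by 0.95 and Il18bp by 0.84. The share called lower was near that of all genes tested (18.6%). The 6 Kupffer cell markers summed to 71.2 to 519 CPM in chow (median 165) and 162 to 424 CPM after semaglutide (median 256), with 1 called higher and 2 lower. Among them Clec4f, a lectin of Kupffer cells, had a median of 45.8 CPM in chow and 68.5 CPM after semaglutide, and Vsig4, a complement receptor, of 14.8 and 20.1 CPM.

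Most antigen presentation, chemokine, interferon and T cell genes were called higher than chow. All 9 MHC class II presentation genes were called higher, with a median of 1.64, and of 2.33 without mouse 8. Cd74, the invariant chain, was at 38.3 to 377 CPM in chow (median 65.2) and 169 to 499 CPM after semaglutide (median 372), and mouse 8, at 377 CPM, was the chow-fed mouse within the treated range. The log2 fold change of H2-Aa was 1.74, and 2.5 without mouse 8, and that of H2-Ab1 1.64, and 2.33 without it. Of 25 chemokine and receptor genes 18 were called higher and 3 lower (median 1.40). Ccl7, a monocyte chemokine, had no read in any chow-fed mouse and was at 0.109 to 0.598 CPM after semaglutide. Ccl22 rose by 2.62 (3.71 without mouse 8) and Ccl2 by 2.41 (3.26 without chow-fed mouse 2). Of 19 interferon-stimulated genes 15 were called higher and 0 lower (median 1.30), led by Ifit2, an antiviral RNA-binding protein, at 1.31 to 2.91 CPM in chow and 4.78 to 20.4 CPM after semaglutide. Of 16 T cell and cytotoxic lymphocyte genes 10 were called higher and 1 lower, and 12 and 0 without mouse 8. Pdcd1, the inhibitory receptor PD-1, rose by 3.61 on the log2 scale from at most 0.123 CPM in chow. Gzma, granzyme A, held 19.4 CPM in mouse 8, and its log2 fold change of -2.65 became 0.45 and lost its call without that mouse.

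About as many genes of lipid storage and lipogenesis were called higher than chow as were not, and most genes of fatty acid oxidation were not called. Of 20 lipid droplet and lipolysis genes 10 were called higher and 3 lower (median 0.48), 11 and 1 without mouse 8, and 5 were called lower without semaglutide mouse 1. Mogat1, an acyltransferase of triglyceride synthesis, was at 0.0753 to 1.66 CPM in chow and 3.94 to 7.93 CPM after semaglutide, without overlap, a log2 rise of 2.76. Plin4, a droplet coat protein, rose by 2.54 and Pnpla3, the patatin-like lipase gene, by 2.93. Mogat2 held 39.6 CPM in mouse 8, and changed by -3.51 with it and by -0.03, with its call lost, without it. Of 14 PPARG target and uptake genes 9 were called higher and 1 lower (median 0.81), or 2 lower without any 1 of chow-fed mice 1 to 6 or semaglutide mice 4 and 5. Cd36, a fatty acid transporter, was at 49 to 92.8 CPM in chow (median 65.2) and 222 to 350 CPM after semaglutide (median 278), a log2 rise of 2.08 (SE 0.15, adjusted p = 2.6e-15). Lpl, lipoprotein lipase, rose by 2.23 without overlap. Of 17 lipogenesis genes 9 were called higher and 3 lower (median 0.73), and the 3 became 1 without chow-fed mouse 3 or 4 or semaglutide mouse 1, 7 or 8. Scd1, the desaturase of palmitate and stearate, was at 14940 to 26339 CPM in chow and 25950 to 66376 CPM after semaglutide, a log2 rise of 1.17. Acacb, the carboxylase that restrains mitochondrial fatty acid entry, rose by 1.53 without overlap. Of 22 oxidation and ketogenesis genes 4 were called higher and 2 lower (median 0.11), beside 21.3% and 18.6% of all genes tested. Pdk4, a brake on pyruvate oxidation, rose by 1.93, and Fgf21 by 1.76 (2.41 without chow-fed mouse 1). Acadvl (-0.19), a beta-oxidation dehydrogenase and 1 of the 2 called lower, lost its call without any of 8 mice, chow-fed mice 4, 6, 7 and 8 and semaglutide mice 5, 6, 7 and 8.

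Most genes of cholesterol synthesis fell. Of 24 genes 21 were called lower and 0 higher, with a median of -1.09, and 14 of the 24 lay below every chow-fed mouse. In DIO-MASH vehicle 22 were called lower (median -1.30). Idi1, the isomerase of isoprenoid units, was at 14.7 to 37.8 CPM in chow (median 21) and 2.37 to 6.58 CPM after semaglutide (median 4.23). Cyp51, the lanosterol demethylase, was at 225 to 368 CPM and 46.6 to 109 CPM. The groups were apart for both, with log2 changes of -2.39 (SE 0.26, adjusted p = 4.2e-10) and -2.11. Sqle was at 96.9 to 210 CPM in chow and 2.04 to 24.6 CPM after semaglutide. Msmo1, Nsdhl and Tm7sf2, which act after lanosterol, fell by 2.06, 1.89 and 1.75.

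The promoters of these genes are shown because the list moved together. RefSeq promoter windows of 250 bases before to 50 after the start (GRCm38.p6) were matched for 16 of the 24 genes, and all 16 held CCAAT on either strand, against 41.1% of all 27025 genes with a window. TCACNCCAC, a spelling of the sterol regulatory element, was found on either strand in 1 of the 16, Hmgcs1, against 1.44% of all genes. These matches are a description of the letters and not of binding. The 150 bases before the start are printed 5′ to 3′ on the gene's own strand, with CCAAT (or ATTGG, its reverse complement) and TCACNCCAC in capitals, for Idi1 at chr13:8885456-8885605 (+), Hmgcs1 at chr13:119690201-119690350 (+), Cyp51 at chr5:4104698-4104847 (-) and Lss at chr10:76531455-76531604 (+).
Idi1: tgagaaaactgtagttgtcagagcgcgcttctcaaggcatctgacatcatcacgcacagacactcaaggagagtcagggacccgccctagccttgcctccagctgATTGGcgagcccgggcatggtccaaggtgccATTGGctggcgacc
Hmgcs1: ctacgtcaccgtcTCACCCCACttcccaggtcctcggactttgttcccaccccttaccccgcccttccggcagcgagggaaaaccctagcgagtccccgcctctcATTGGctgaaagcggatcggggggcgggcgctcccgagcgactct
Cyp51: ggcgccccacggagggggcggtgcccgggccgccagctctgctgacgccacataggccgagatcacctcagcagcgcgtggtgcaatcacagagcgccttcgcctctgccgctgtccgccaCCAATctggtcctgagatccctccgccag
Lss: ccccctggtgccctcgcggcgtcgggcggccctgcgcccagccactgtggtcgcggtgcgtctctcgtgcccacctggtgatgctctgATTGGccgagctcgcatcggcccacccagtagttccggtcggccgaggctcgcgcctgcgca

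Genes of cholesterol export and of bile acid handling split or fell. Of 19 export and LXR target genes 6 were called higher and 8 lower (median -0.22), while the mean log2 level of the list was 0.02 to 0.25 above the chow mean in the semaglutide mice. Apoa4, an apolipoprotein of intestine and fatty liver, was at 236 to 1254 CPM in chow and 1705 to 3815 CPM after semaglutide, a log2 rise of 2.5 without overlap. Abcg1, a sterol exporter of macrophages, rose by 1.72, while Lcat, which esterifies plasma cholesterol, fell by 0.71 and Apoa1 by 0.60. Of 17 bile acid synthesis genes 10 were called lower and 0 higher (median -0.42). Cyp27a1, which opens the acidic route, was at 620 to 784 CPM in chow and 330 to 589 CPM after semaglutide, a log2 change of -0.62 without overlap, and Cyp7b1 of the same route changed by -1.08. Klb, the FGF21 and FGF15 co-receptor, fell by 0.51 and Fgfr4 by 0.86. Of 16 transporter genes 1 was called higher and 6 lower (median -0.23). Slc10a1, the bile acid importer NTCP, was at 814 to 1107 CPM in chow, 407 to 807 CPM after semaglutide and 243 to 360 CPM in DIO-MASH vehicle. Its log2 change against chow was -0.74 (SE 0.14, adjusted p = 1.9e-05) after semaglutide and -1.62 in DIO-MASH vehicle. Slc10a2, the ileal-type importer, was the member called higher, at 1.17, and 2 were called higher without mouse 8.

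Drug and toxin metabolism genes lay mainly below chow. Of 26 cytochrome P450 genes of families 1 to 3, 19 were called lower and 2 higher (median -0.87), or 1 higher without semaglutide mouse 1. Cyp1a2, which oxidizes aromatic amines, was at 607 to 1209 CPM in chow and 124 to 472 CPM after semaglutide, and Cyp2f2 at 1275 to 2565 CPM and 166 to 1022 CPM. Both fell without overlap, by 1.59 and 1.81 on the log2 scale. Of 28 conjugation and NRF2 enzyme genes 16 were called lower and 1 higher (median -0.42). Ces2a, a carboxylesterase, was at 464 to 930 CPM in chow and 114 to 252 CPM after semaglutide, a log2 change of -1.88. The member called higher was Slc7a11, the cystine importer, at 3.37. Gsta1, a glutathione transferase with close relatives, changed by -2.35, and by -0.23 with its call lost without mouse 8.

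Most genes of amino acid metabolism and respiration fell. Of 31 urea cycle and amino acid genes 28 were called lower and 1 higher, with a median of -0.71 (-1.15 in DIO-MASH vehicle). Gnmt, which consumes S-adenosylmethionine, was at 2726 to 4603 CPM in chow (median 3451) and 473 to 1519 CPM after semaglutide (median 1147), a log2 change of -1.63 (SE 0.19, adjusted p = 1.8e-09). Ass1, a urea cycle enzyme, was at 1916 to 4178 CPM and 714 to 1862 CPM, a change of -1.41. Neither gene overlapped between groups, nor did Cth of cysteine synthesis (-1.78) or Agxt of glyoxylate breakdown (-1.44). Of 23 respiratory chain subunit genes 20 were called lower and 0 higher, by little each (median -0.32), as for Atp5b (-0.31) and Sdhb (-0.49). Of 25 glucose metabolism genes 8 were called higher and 3 lower (median 0.03). G6pc, the last enzyme of glucose output, rose by 1.31 but lost its call without semaglutide mouse 2, and Pck1, its partner upstream, fell by 1.01. Pklr, pyruvate kinase, rose by 0.76.

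Hepatocyte identity genes lay in part below chow, where 18.6% of all genes tested were called lower. In DIO-MASH vehicle 11 of 16 periportal, 9 of 19 pericentral and 13 of 23 transcription factor genes were called lower than chow. Directly against DIO-MASH vehicle, 1, 5 and 3 of these genes were called higher after semaglutide and 0 lower. Of 16 periportal genes 11 were called lower and 2 higher (median -0.79; 1 higher without semaglutide mouse 5 or 7), and Alb, albumin, fell by 0.98 on the log2 scale, from 111964 to 186125 CPM in chow to 49818 to 84234 CPM. Of 19 pericentral genes 6 were called lower and 3 higher (median -0.09). The 3 were Glul (0.80), Slc1a4 (1.36) and the tight junction gene Cldn2 (0.80), while Oat fell by 0.64. Of 23 hepatocyte transcription factor genes 6 were called lower and 0 higher (median -0.19), among them Hnf4a, the main regulator of the differentiated state, at 907 to 1144 CPM in chow and 428 to 918 CPM after semaglutide (-0.63). Of 19 clock genes 7 were called lower than chow in DIO-MASH vehicle, and 0 were called in semaglutide directly against DIO-MASH vehicle. After semaglutide 1, Ciart (-1.04), was called lower than chow. That call was lost without any 1 of chow-fed mice 2, 3, 4, 5 and 7 or semaglutide mice 4 to 8. Of 26 growth hormone and IGF axis genes 6 were called higher and 9 lower (median -0.42). The share called higher was near that of all genes tested (21.3%). Hsd3b5, a steroid reductase typical of males, was at 0.226 to 167 CPM in chow and 0 to 76.8 CPM after semaglutide, so that its change of -2.83 became -4.75 without semaglutide mouse 3, which held the 76.8 CPM.

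Secreted proteins of the liver did not move as 1 group. Of 23 acute phase genes 14 were called lower and 3 higher (median -0.75), and these counts rested on chow-fed mice 2 and 7, with 4 lower and 5 higher without mouse 2 and 9 lower without mouse 7. The mean log2 level of the list lay between -0.05 and 0.56 of the chow mean in the semaglutide mice, so that mean and median differed in sign. Without both, a choice made after seeing the data, 4 were called lower and 9 higher (median 0.30). Saa1, Saa2 and Orm2 changed by -2.46, -3.0 and -3.19 with all mice, and by 2.61, 3.05 and 1.71 without mice 2 and 7. Hamp, hepcidin, was at 804 to 1858 CPM in chow and 29.6 to 930 CPM after semaglutide, a log2 change of -2.07. Of 18 iron genes 8 were called lower and 0 higher (median -0.36; 2 higher without chow-fed mouse 2), with Tfr2 at -0.64, and Hamp2 changed from -2.83 to 1.10 and lost its call without chow-fed mouse 1, which held 2633 CPM. Of 31 complement and coagulation genes 19 were called lower and 3 higher (median -0.46). C8b, of the membrane attack complex, was at 314 to 521 CPM in chow and 71.1 to 270 CPM after semaglutide (-1.36), and the 3 called higher were C1qa, C1qb and C1qc (1.03, 1.26 and 1.13), which macrophages make. Of 25 FGF21 axis and hepatokine genes 5 were called higher and 7 lower (median -0.31). Their share called higher was near that of all genes tested (21.3%). Fetub, a fetuin, was at 842 to 1477 CPM in chow and 341 to 595 CPM after semaglutide, and Ahsg, the other fetuin, also lay below every chow-fed mouse, at changes of -1.27 and -0.87. Gdf15, a stress-induced hormone, rose by 1.13 and Hgf by 1.5.

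Stress and retinoid genes were called in both directions, and endothelial genes only higher. Of 24 ER chaperone and integrated stress response genes 8 were called lower and 2 higher (median -0.34), and the 8 became 3 without semaglutide mouse 7, 5 without mouse 2 or 6 and 12 without mouse 3. Asns, asparagine synthetase, fell by 2.99 on the log2 scale and Psat1, of serine synthesis, rose by 2.17. Of 19 retinoid genes 4 were called higher and 7 lower (median 0.05), the share called higher being near that of all genes tested (21.3%). Lrat, which makes the retinyl esters stored by stellate cells, was at 6.24 to 16.1 CPM in chow and 21.4 to 46.6 CPM after semaglutide, a log2 rise of 1.64, and the reductase gene Rdh11 fell by 1.42. Of 23 sinusoidal endothelial and capillarization genes 11 were called higher and 0 lower (median 0.37). Cd34, a marker of capillarized endothelium, rose by 2.07, Lyve1 by 1.47 and the endothelin receptor gene Ednrb by 1.20.

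Ductular and cell cycle genes were called higher more often without chow-fed mouse 8. Of 20 ductular and progenitor genes 9 were called higher and 2 lower (median 0.38) with all mice, and 18 and 0 (median 1.92) without mouse 8. Krt19, a bile duct keratin, was at 0.832 to 4.21 CPM in 7 chow-fed mice, 156 CPM in mouse 8 and 0.709 to 12.2 CPM after semaglutide. Its log2 change was -1.75 with mouse 8 and 1.65 without it. Sox4 rose by 1.93 and by 2.01 without mouse 8. Of 25 cell cycle genes 16 were called higher and 0 lower (median 1.17), and 19 higher without mouse 8. In DIO-MASH vehicle 21 were called higher (median 2.20) against all 8 chow-fed mice, mouse 8 included. Mki67, the proliferation antigen Ki-67, was at 0.592 to 4.18 CPM in chow (median 1.26), 2.48 to 8.65 CPM after semaglutide (median 6.18) and 7.76 to 22.2 CPM in DIO-MASH vehicle (median 13.7). Its log2 rise over chow was 1.71 (SE 0.38, adjusted p = 0.00032). A list of 14 genes picked in earlier work on these samples as nearly silent in chow gave 13 called higher and 0 lower, which is no independent evidence of direction, and Ly6d rose by 4.72 within it.

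**Figure D4:**
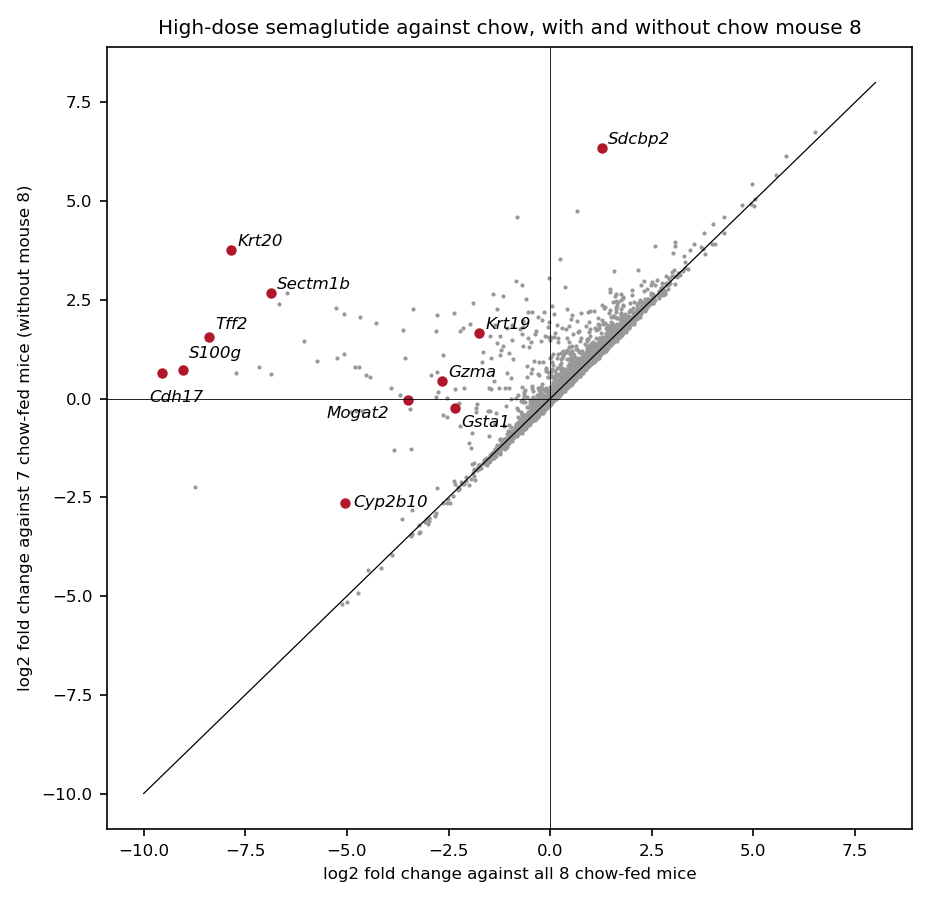
Log2 fold changes of high-dose semaglutide against all 8 chow-fed mice (horizontal) and against 7, without mouse 8 (vertical), for each gene at 1 CPM or more, with a line of equality. Most genes lay along the line, and Cdh17, S100g, Tff2, Krt20 and Sectm1b moved most, from -9.56 to 0.65 for Cdh17.

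Leaving out chow-fed mouse 8 moved 161 of 11696 genes at 1 CPM or more by over 1 on the log2 scale. Of the calls, 5095 stayed with the same direction, 517 were lost, 555 were gained and 22 turned. The genes that moved most were epithelial. Cdh17, an intestinal cadherin, went from -9.56 to 0.65, S100g, a calcium-binding protein, from -9.04 to 0.73, and Tff2, a mucosal trefoil peptide, from -8.40 to 1.56. Krt20 went from -7.84 to 3.76 and Sectm1b from -6.88 to 2.68. Leaving out semaglutide mouse 8 put S100g at -10.04, and leaving out mouse 7 put Sectm1b at -7.49. These 5 genes reached 234, 279, 1387, 259 and 62.3 CPM in mouse 8 and at most 1.20 CPM in any semaglutide mouse. Of the other marker lists, 2 of 6 sinusoidal endothelial, 4 of 5 T cell, 2 of 4 adipocyte and 0 of 5 neutrophil markers tested were called higher with mouse 8. Of neutrophil markers 2 were called lower (1 without mouse 8), as were 1 of 5 red cell, 1 of 2 pancreas and 1 of 4 adipocyte markers. Only 2 of 10 pancreas and 4 of 8 adipocyte markers were tested. The 2 pancreas genes were Cela1, with medians of 20.9 CPM in chow and 8.57 CPM after semaglutide, and Cela2a, with 0.179 and 0.225 CPM. The adipocyte markers summed to a median of 3226 CPM in chow and 1366 CPM after semaglutide, nearly all of it Pck1, which hepatocytes also express (medians 3195 and 1328 CPM).

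The semaglutide mice differed among themselves in how far they lay from chow, and in several lists this followed the range of mouse numbers. Collagen genes were 0.85 to 1.51 above the chow mean in the 4 mice of the first range (mice 1 to 4), 1.68 and 2.06 in the 2 of the second (mice 5 and 6), and 2.67 and 2.16 in the 2 of the third (mice 7 and 8). Recruited macrophage genes were at 0.89 to 1.78, 1.88 to 2.33 and 2.19 to 2.51, and ductular genes at 0.01 to 0.81, 1.20 to 1.65 and 1.78 to 2.22. Set against the chow-fed mice of the same range, semaglutide and DIO-MASH vehicle stood at 1.05 and 2.04 for collagens in the first range, 1.65 and 2.25 in the second, and 2.56 and 2.82 in the third. For stellate cell genes the pairs were 0.47 and 1.18, 1.0 and 1.10, and 1.55 and 1.49, so that semaglutide was not below DIO-MASH vehicle in the third range. With 1 to 4 mice per group in a range, individual mice and the range cannot be told apart. Mouse 3 was nearest to the chow mean in the collagen (0.85), recruited macrophage (0.89), MHC class II (1.15) and cell cycle (0.10) lists. Mouse 7 was farthest in the same 4 lists, at 2.67, 2.51, 2.40 and 1.54. For urea cycle and amino acid genes mouse 3 was at -0.41 and mouse 7 at -1.39. Cholesterol synthesis did not follow this order, with mouse 3 the lowest at -1.60 and mouse 5 the nearest to chow at -0.79.

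**Figure D5:**
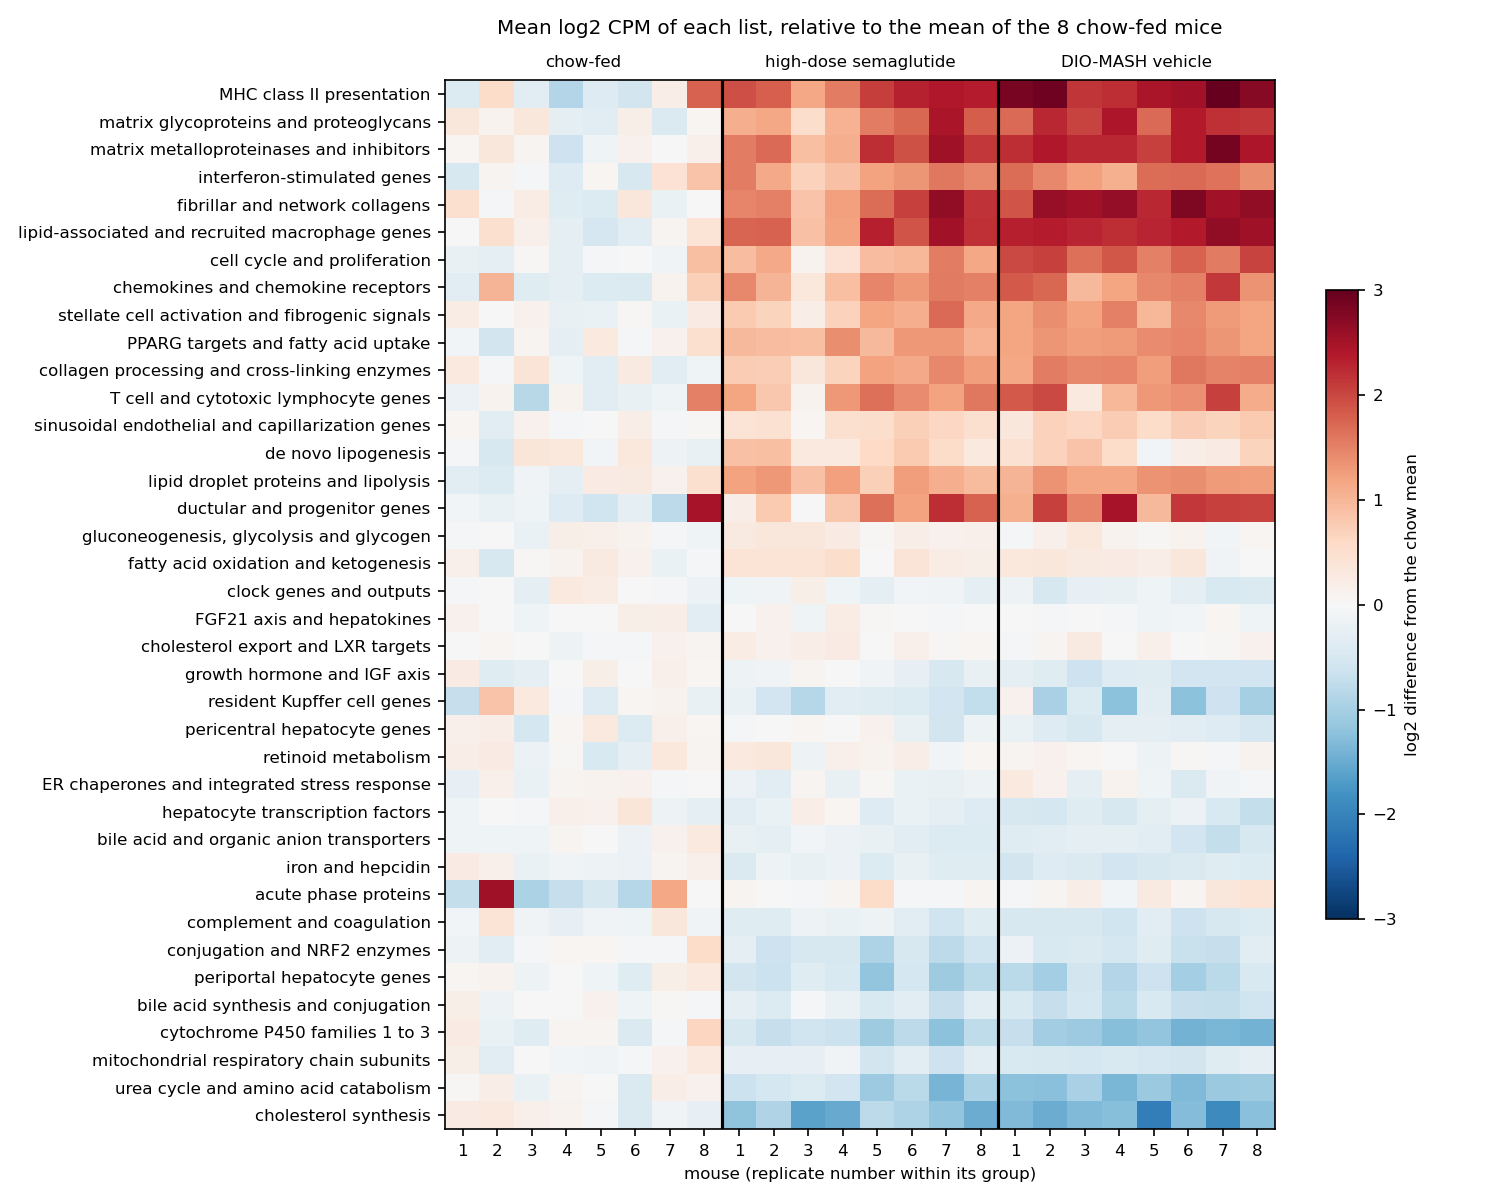
Mean log2 CPM of each list (rows) in each mouse (columns, 8 chow-fed, 8 high-dose semaglutide, 8 DIO-MASH vehicle) relative to the chow mean, as colour. In the collagen list the semaglutide mice ran from 0.85 in mouse 3 to 2.67 in mouse 7, and the DIO-MASH vehicle mice from 1.89 to 2.81.

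Directly against DIO-MASH vehicle, high-dose semaglutide differed in 343 genes (2.43%), 202 higher (1.43%) and 141 lower (1.0%), and in 516 by DESeq2. The count ran from 69 without semaglutide mouse 4 to 745 without semaglutide mouse 7, and was 81 and 134 without mice 3 and 2 and 170 without DIO-MASH vehicle mouse 2. In no list was a majority of the genes called. Urea cycle and amino acid genes gave 10 of 31 higher, a count that ran from 3 without semaglutide mouse 4 to 14 without mouse 7. Collagens gave 4 of 18 lower (1 without mouse 2, 11 without mouse 7), matrix glycoproteins 6 of 27 (0 without mouse 3) and cell cycle genes 8 of 25 (3 without mouse 3, 15 without mouse 7). Metalloproteinase, stellate cell, respiratory chain, lipogenesis and fatty acid oxidation genes held no gene called by edgeR in either direction. Complement and coagulation genes gave 8 of 31 higher (1 without mouse 3). Slc10a1 rose by 0.88 on the log2 scale (SE 0.14, adjusted p = 0.00012), and Col1a1 fell by 1.27 (adjusted p = 0.049). Cnmd, chondromodulin, was at 2.30 to 9.75 CPM after semaglutide and 0.706 to 2.46 CPM in DIO-MASH vehicle, a rise of 1.9 (adjusted p = 0.0016) called in 17 of 17 fits that left out a mouse. Cyp21a1, the adrenal-type steroid hydroxylase, was at 0.136 to 0.726 CPM and 2.10 to 7.27 CPM, and fell by 3.24, and Sprr1a, a cornified envelope protein, by 2.99, both in 17 of 17 fits. Sult2a8 (1.48), a bile acid sulfotransferase, and Upp2 (1.44) were called in 16 and 14 fits. Cyp2c54 (1.42), a P450 with close relatives, C1s2 (-4.59), Pou2af1 (-3.43), Pla2g2d (-4.06) and Cilp (-2.53) were called in 11, 13, 13, 9 and 7 fits. Without DIO-MASH vehicle mouse 2, C1s2 was at -0.37 and Pou2af1 at -2.78. Pla2g2d ran from -3.46 without DIO-MASH vehicle mouse 1 to -4.75 without semaglutide mouse 7, and its fold change also moved by over 1.5 times without DIO-MASH vehicle mouse 2.

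A few genes lay beyond both chow and DIO-MASH vehicle, 2 comparisons that share the semaglutide mice. Lepr, the leptin receptor, was at 2.18 to 9.78 CPM in chow (median 3.27), 5.68 to 24.3 CPM in DIO-MASH vehicle (median 14.3) and 23.7 to 59.2 CPM after semaglutide (median 37.3). The semaglutide mice lay above every chow-fed mouse and overlapped DIO-MASH vehicle at 1 edge, with log2 rises of 2.89 (SE 0.36, adjusted p = 1.8e-08) over chow and 1.44 (SE 0.33, adjusted p = 0.013) over vehicle. Elovl2, which lengthens polyunsaturated fatty acids, rose by 0.43 over chow and 0.59 over vehicle. Acot3, a peroxisomal thioesterase, rose by 0.87 and 1.45, and lost its call against chow without chow-fed mouse 2 or 7 or semaglutide mouse 2 or 3. Cyp17a1, a steroid hydroxylase, rose by 1.60 and 1.24, and Glul, glutamine synthetase, by 0.80 and 0.39, with the call against vehicle kept in 5 and 8 of 17 fits. Ndfip2 and Lasp1 lay lower by 0.29 and 0.26 than chow and by 0.33 and 0.37 than vehicle, in 11 and 6 of 17 fits against vehicle, and Lasp1 also lost its call against chow without any 1 of chow-fed mice 1, 6, 7 and 8 or semaglutide mice 1, 2, 3, 4, 6 and 7. C1s2 was called lower than chow (-4.74) with chow-fed mouse 1, which held 21.5 CPM against at most 0.217 CPM in the other 7, and changed by 0.31 without it.

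Against the combination 266 genes differed (1.89%), 145 higher (1.03%) and 121 lower (0.858%), with 126 to 366 on leaving out 1 mouse. Lipid droplet genes gave 6 of 20 higher, or 2 without semaglutide mouse 6. Cidea was higher by 3.79 on the log2 scale (SE 0.46, adjusted p = 2.6e-07), Cfd, adipsin, by 4.38 and Sdcbp2 by 3.94, each called in 17 of 17 fits. Cidea was at 4.64 without combination mouse 4 and Cfd at 5.09 without combination mouse 5. Arntl, the clock activator BMAL1, was lower by 3.25. Slc22a26 and Atp2b2 were lower by 2.25 and 2.67, and clock genes gave 5 of 19 lower, or 1 without semaglutide mouse 6. Serpina1e (3.20, and 2.60 without semaglutide mouse 3), Mup14 (3.05) and Cyp2b13 (-2.84) have close relatives. Against high-dose zalfermin 63 genes differed (0.447%), 44 higher (0.312%) and 19 lower (0.135%), with 25 to 119 on leaving out 1 mouse. Cidea was higher by 2.87 and Themis, a T cell signalling gene, by 1.94 (adjusted p = 0.0051). Urea cycle and amino acid genes gave 7 of 31 lower, or 3 without semaglutide mouse 6 and 10 without mouse 3. Got1, the cytosolic aspartate transaminase, was lower by 1.31, Acmsd, of tryptophan breakdown, by 1.22 and Tmem266 by 1.46, each in 17 of 17 fits. Shc2 (1.96), Fam83a (1.72), Sdcbp2 (3.36), Nnmt (-1.30) and Cyp2b13 (-2.32) were called in 7, 11, 4, 9 and 9 fits.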

How the data were processed

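RNA from snap-frozen liver was made into stranded mRNA libraries and sequenced on an Illumina NextSeq. The study's methods name STAR as the aligner to GRCm38, and the authors deposited raw gene counts for 21935 genes in 56 mice. The submitters' processing notes instead name Trim Galore 0.6.4 and Salmon 1.9.0, and which of these made the counts, and with what settings, is not given in the sources used here. Reads of near-identical or overlapping genes may be split between them.

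Genes with at least 5 reads in at least 3 mice were kept (14105). Counts were fitted for all 7 groups together with edgeR 4.0.16 (TMM, quasi-likelihood F test, R 4.3.3), with Benjamini-Hochberg adjustment over all genes and a threshold of 0.05. All 56 mice were kept, whereas the study left out 1 outlying low-dose semaglutide sample, whose number it does not give. A gene's standard error is its log2 fold change over the square root of F. The common dispersion was 0.0512 (biological coefficient of variation 22.6%). Scripts were tested on simulated data. Alternatives were DESeq2 1.42.0, other filters and normalization, fits of only the groups compared, and mouse number range as a covariate. Each mouse of the groups compared was also left out in turn, as was low-dose semaglutide mouse 6.

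Members, the 39 gene lists (830 entries) and the 14 marker lists were chosen with earlier results of these data known. Named genes were the 12 largest rises and falls against chow without overlap, the largest changes against each other group, up to 6 called members and the most abundant one of each list, genes beyond both chow and DIO-MASH vehicle, and the 5 that moved most without chow-fed mouse 8. Mouse numbers below 4500, 4700 and 5000, and above, form the ranges. Each sample is labelled as 1 mouse, and depth was 5228187 to 20885786 reads (median 12206788). Some genes that the naming rule selects are not reported here.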

Additional observations from a re-analysis of the deposited data

Results flagged for a closer look

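In 21 of 180 values tested, 1 of 8 mice lay apart from the rest of its group by more than Dixon's 95% critical value. Chance flags about 1 in 20 groups, but the values are not a fair draw, since Cdh17, S100g, Tff2, Krt20 and Sectm1b were named for how far they moved without chow-fed mouse 8, and their flags follow from that choice. Of these, 14 were chow-fed mouse 8 at the highest value. Its mean log2 level above the chow mean was 1.5 for T cell and cytotoxic lymphocyte genes, 0.54 for conjugation and NRF2 enzymes, 2.47 for ductular and progenitor genes and 0.90 for cell cycle genes. Its summed markers were 1670 CPM for cholangiocytes, 2486 CPM for gallbladder, stomach and intestinal epithelium and 159 CPM for mesothelium, lists that share Tff2 or Krt19. Cyp2b10 reached 109 CPM, Slc13a2 10.5 CPM, Krt20 259 CPM, Cdh17 234 CPM, Tff2 1387 CPM, S100g 279 CPM and Sectm1b 62.3 CPM in the same liver. What lies behind these levels was not tested.

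Chow-fed mouse 1 held 21.5 CPM of C1s2, and chow-fed mouse 2 was the lowest for sinusoidal endothelial genes at -0.34. In the semaglutide group, mouse 3 was the highest for clock genes (0.17) and adipocyte markers (2985 CPM) and the lowest for sinusoidal endothelial genes (0.06). Semaglutide mouse 4 was the highest for Cd163 (2.77 CPM), and mouse 5 for acute phase genes (0.56).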

How the results depend on the processing

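No paired analysis was possible because the labels carry no replicate numbers that tie mice across groups. Of 7583 alternative values for 318 combinations of gene and comparison, 7205 kept direction and side of the threshold, 345 lost the call, 7 gained it and 26 reversed. Counts of called genes moved by over 1.5 times only in comparisons among DIO-MASH groups and on these settings. DESeq2 gave 516 against DIO-MASH vehicle, 415 against the combination and 131 against high-dose zalfermin, fitting only the groups compared gave 124 against the combination, and leaving out low-dose semaglutide mouse 6 gave 119 against high-dose zalfermin. Without that mouse the counts also rose to 502 against DIO-MASH vehicle and 319 against the combination, by less than 1.5 times. Leaving out 1 mouse gave 69 to 745 against DIO-MASH vehicle, 126 to 366 against the combination and 25 to 119 against high-dose zalfermin. The cause was not tested.

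The 26 reversals, as log2 fold changes against chow, were these. With DESeq2, C1s2 was at 0.55, Gzma 0.43, Mogat2 0.05, Krt20 2.67, Hamp2 0.90, Cdh17 0.24, Tff2 1.38, S100g 0.71 and Sectm1b 1.46. With mouse number range as a covariate Gzma was at 0.21 and Krt19 at 1.13. Without chow-fed mouse 8, Gzma was at 0.45, Krt20 3.76, Krt19 1.65, Cdh17 0.65, Tff2 1.56, S100g 0.73 and Sectm1b 2.68. Without chow-fed mouse 1, C1s2 was at 0.31 and Hamp2 at 1.10, and without chow-fed mouse 2, Orm3 at 0.42. On leaving out 1 mouse, the lowest values of these 3 were -5.02, -3.09 and -1.58. Without chow-fed mice 2 and 7, Orm2 was at 1.71, Saa2 3.05, Saa1 2.61, Orm3 1.45 and Hpx 0.27. Genes below 1 CPM rest on few reads at these depths, and their fold changes depend on single mice.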
